A study of Mus musculus with 4 samples.

Results

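Ectopic expression of Tox in CD4 T cells was examined here through 10 genes of the calcium, calcineurin and NFAT pathway, out of 24369 genes listed. These were the calcium-regulated factors *Nfatc1*, *Nfatc2* and *Nfatc3*, the related factor *Nfat5*, the calcineurin catalytic subunit genes *Ppp3ca*, *Ppp3cb* and *Ppp3cc*, the regulatory subunit gene *Ppp3r1*, and the calcineurin regulators *Rcan1* and *Rcan3*. They were taken by gene symbol, and all 10 had enough counts to be tested. There were 4 libraries. The 2 EV RV libraries came from cells that received the empty MSCV-IRES-eGFP retrovirus, and the 2 Tox RV libraries from cells that received the same vector carrying *Tox*. In both groups naïve CD4 T cells of WT C57BL/6 spleens were cultured without polarization on anti-CD3 with anti-CD28 and IL-2, transduced on day 2, restimulated through CD3 on day 5 for 5 h and sorted as CD4 cells expressing GFP. Each group represented 2 mice, and ages are not given in the sources used here. Both viruses mark cells with GFP, and *Tox* is driven by the viral vector rather than by its own gene, so the comparison is between a forced level of Tox and the level the cells make themselves. The treatment label names an anti-CD28 reagent where the methods name IL-2.

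NFAT proteins are transcription factors that wait in the cytoplasm in a phosphorylated form. When the T cell receptor is engaged, calcium enters the cell, calmodulin binds calcium and switches on the phosphatase calcineurin, and calcineurin removes phosphates from NFAT so that it moves to the nucleus and drives cytokine and activation genes. Calcineurin is the target of ciclosporin and tacrolimus. A change in the activity of this pathway is made by phosphorylation and need not be seen in the amount of its mRNA, which is what was measured here.

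The libraries held between 46989997 and 74548723 expected counts each. The transduced gene *Tox* was at 7.22 and 3.37 TPM (RSEM's transcript abundance, which sums to the same total in every library) in the EV RV libraries and at 69.1 and 56.9 TPM in the Tox RV libraries, on the side of each label (log2 fold change 3.68, edgeR adjusted p = 0.490, DESeq2 adjusted p = 3.79e-24). Of the 5 markers of CD4 T cells, *Cd4* was at 174 to 250 TPM, *Cd3d* at 341 to 397 TPM and *Cd3g* at 451 to 763 TPM over the 4 libraries, while *Cd3e* was at 285 TPM in EV RV replicate 1 against 85.7 to 109 TPM in the others, and *Cd28* at 226 TPM there against 131 to 150 TPM. Of the markers of other cells, those of B cells summed to 2.13 to 2.59 TPM, with *Ms4a1* at 0 counts in each library. Those of myeloid cells summed to 1.02 to 2.51 TPM and those of CD8 T cells to 3.32 to 4.98 TPM. Those of NK cells summed to 6.82 to 53.8 TPM, highest in EV RV replicate 1. EV RV replicate 1 stood apart from the other 3 libraries. It lay at -53.8 on the first principal component (58.0% of the variance), against 5.70 to 25.8, and 24.7% of its counts came from the 45S pre-ribosomal RNA *Rn45s*, against 7.14% to 11.97%. Log2 fold changes without this library are therefore given beside most of those with it.

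None of the 10 genes changed between Tox RV and EV RV cells past the test. In edgeR's quasi-likelihood test, 0 of the 10 had an adjusted p-value below 0.05, as did 0 of the 14143 genes tested (0%), and 0 of the 10 had an unadjusted p-value below 0.05, against 3.62% of all genes (512, with 152 higher and 360 lower in Tox RV cells, or 260 higher and 205 lower when scaled by library totals). In DESeq2, 0 of the 10 had an adjusted p-value below 0.05, against 22 genes or 0.121%. *Nfatc2* alone of the 10 had an unadjusted p-value below 0.05 there (DESeq2 unadjusted p = 0.0341), against 619 of 19286 genes. Without EV RV replicate 2, 2 of the 10 passed (*Nfatc2* and *Nfat5*), in a fit that called 4.16% of all genes. The count stayed at 0 with no filter on low counts (0.114% of all genes called), with the replicate block (0.113%), and without EV RV replicate 1 (0.00685%), Tox RV replicate 1 (0.0834%) or Tox RV replicate 2 (0.156%). In CPM the groups did not overlap for 2 of the 10, 1 in each direction, against 36.0% of all genes. Of the 10 log2 fold changes (Tox RV over EV RV), 3 were above 0 and 7 below, with a median of -0.13, against a median of 0.0036 over all genes, of which 50.4% were above 0 and 49.6% below. This split rests on EV RV replicate 1 and on the scaling, since 5 were above 0 and 5 below without that library (median 0.0082) and also when scaled by library totals (median 0.0086). The values ranged from -0.74 for *Nfatc2* to 0.18 for *Rcan1*.

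**Figure D1:**
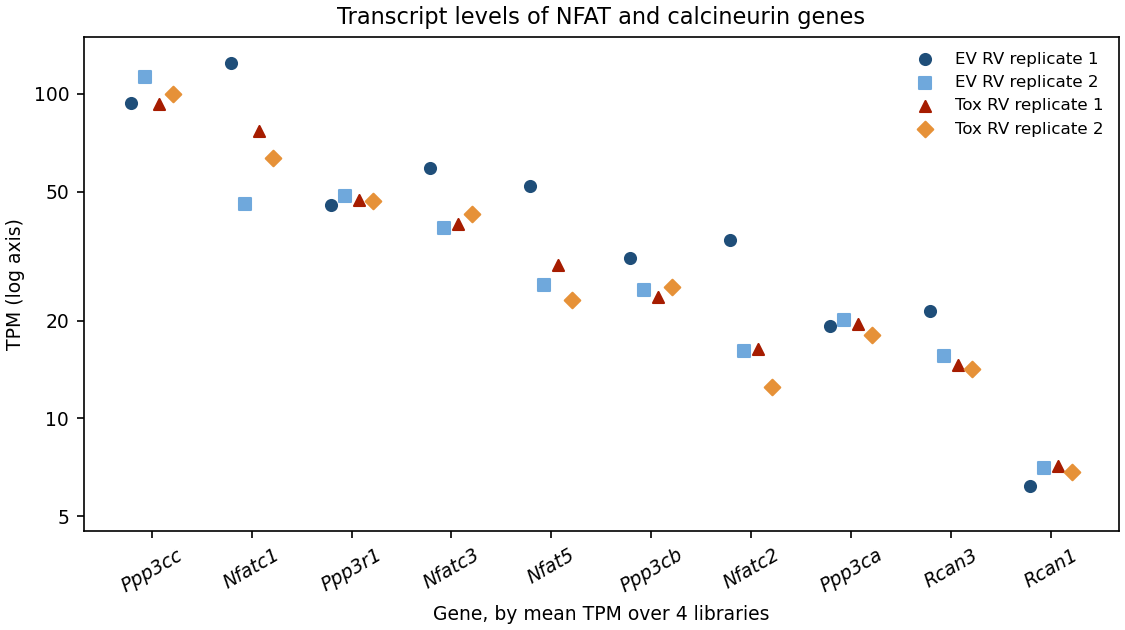
TPM (log axis) of the 10 genes in each of the 4 libraries, ordered from left to right by mean TPM. *Ppp3cc* and *Nfatc1* lie at the top and *Rcan1*, at 6.17 to 7.13 TPM, lies below every other gene in every library.

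The 3 calcium-regulated NFAT genes were all expressed. *Nfatc1*, which is known to be induced by NFAT itself in activated T cells and lies on chromosome 18 (mm10, 80606205 to 80713071, minus strand), was at 124 TPM in EV RV replicate 1, 45.6 in EV RV replicate 2, 77.1 in Tox RV replicate 1 and 63.6 in Tox RV replicate 2. Both Tox RV libraries lay between the EV RV libraries. On the scale of TMM-normalized CPM (counts relative to the scaled library total, from edgeR) the group levels were 234 ± 146 CPM in EV RV and 207 ± 27.9 CPM in Tox RV cells (SD, n = 2 each). The log2 fold change was -0.17 (standard error 0.43, 95% interval -1.25 to 0.90, edgeR adjusted p = 0.947). Its direction turned with 1 library, since it was 0.66 without EV RV replicate 1 and -0.70 without EV RV replicate 2.

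*Nfatc2*, which encodes the NFAT protein already present in resting T cells (NFAT1), lies on chromosome 2 (168476410 to 168601657, minus strand). Its levels were 35.5 TPM in EV RV replicate 1, 16.1 in EV RV replicate 2, 16.4 in Tox RV replicate 1 and 12.5 in Tox RV replicate 2. EV RV replicate 1 was high, and EV RV replicate 2 lay between the Tox RV libraries. The group levels were 97.4 ± 49.0 CPM in EV RV and 58.4 ± 11.9 CPM in Tox RV cells (SD, n = 2 each). Of the 10 genes *Nfatc2* had the lowest log2 fold change, -0.74 (standard error 0.37, 95% interval -1.66 to 0.18, edgeR adjusted p = 0.897). It was -0.11 without EV RV replicate 1. Without EV RV replicate 2 it was -1.17 and passed the test (edgeR adjusted p = 0.0453), in a fit in which 600 genes, or 4.16%, passed and the lone EV RV library was assumed to vary like the Tox RV libraries.

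*Nfatc3* (NFAT4), on chromosome 8 (106058840 to 106130537, plus strand), varied less than the other NFAT genes. It was at 59.2 and 38.7 TPM in the EV RV libraries and at 39.8 and 42.8 TPM in the Tox RV libraries. The Tox RV libraries again lay between the EV RV libraries. Its log2 fold change was -0.15 (standard error 0.22, 95% interval -0.71 to 0.40, edgeR adjusted p = 0.913), and it was 0.13 without EV RV replicate 1. An exon of *Esrp2* overlaps *Nfatc3* on the other strand, and whether strand was used in counting is not stated. *Nfatc4*, the remaining gene of the calcium-regulated group, had 1 to 5 counts in each library, too few to be tested.

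*Nfat5* encodes the family member that lacks a calcineurin docking region and is known for the response to hypertonic stress. It lies on chromosome 8 (107293470 to 107379517, plus strand). Levels of 52.0 and 25.8 TPM in EV RV replicates 1 and 2 stood against 29.7 and 23.2 TPM in Tox RV replicates 1 and 2. EV RV replicate 1 was again the high library, and the other EV RV library lay between the Tox RV libraries. For *Nfat5* the log2 fold change was -0.55 (standard error 0.36, 95% interval -1.44 to 0.33, edgeR adjusted p = 0.897). It was 0.050 without EV RV replicate 1 and -0.98 without EV RV replicate 2 (edgeR adjusted p = 0.0499). Of the genes NFAT5 is known to drive, *Akr1b3* (aldose reductase) was at 82.3 and 73.6 TPM in EV RV and 76.3 and 76.9 TPM in Tox RV cells, with a log2 fold change of 0.060 (standard error 0.16). The osmolyte transporter genes *Slc6a6* and *Slc5a3* had log2 fold changes of -0.069 (standard error 0.20) and -0.19 (standard error 0.22), and 0 of the 3 genes passed the test. Without EV RV replicate 1 the values of *Akr1b3*, *Slc6a6* and *Slc5a3* were 0.098, 0.13 and 0.063. *Slc6a12* had at most 2 counts in a library.

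All 4 NFAT genes were highest in EV RV replicate 1, which is the highest library for 37.0% of all genes tested. It was at one end of the 4 libraries, highest or lowest, for all 10 genes, against 74.1% of all genes. The log2 difference between the EV RV replicates was 1.37 for *Nfatc1*, 1.07 for *Nfatc2*, 0.54 for *Nfatc3* and 1.04 for *Nfat5*. In absolute size these lay at percentiles 95.1, 90.7, 65.6 and 89.9 of the genes tested. Between the Tox RV replicates the same differences were 0.27, 0.42, -0.10 and 0.36. Markers of NK cells differed between libraries too. Of 4 listed, 3 had enough counts to be tested and all 3 were highest in EV RV replicate 1, with *Ncr1* at 0 counts in each library. These 3 were also higher in Tox RV replicate 1 than in either replicate 2 library. Their summed level was 53.8 and 9.79 TPM in the EV RV libraries and 30.9 and 6.82 TPM in the Tox RV libraries. Most of this sum came from *Klrd1* and *Klrk1*, at 33.2 and 19.85 TPM in EV RV replicate 1. *Klrb1c* was low in every library, at 0.73 and 0.12 TPM in EV RV and 0.43 and 0.12 TPM in Tox RV cells. Whether these transcripts came from NK cells was not tested. The libraries came from cells sorted for CD4 and GFP. The part of NK cells, or of the *Rn45s* share, in the NFAT values was not tested. In bulk RNA fewer cells of a type and less RNA per cell cannot be told apart.

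**Figure D2:**
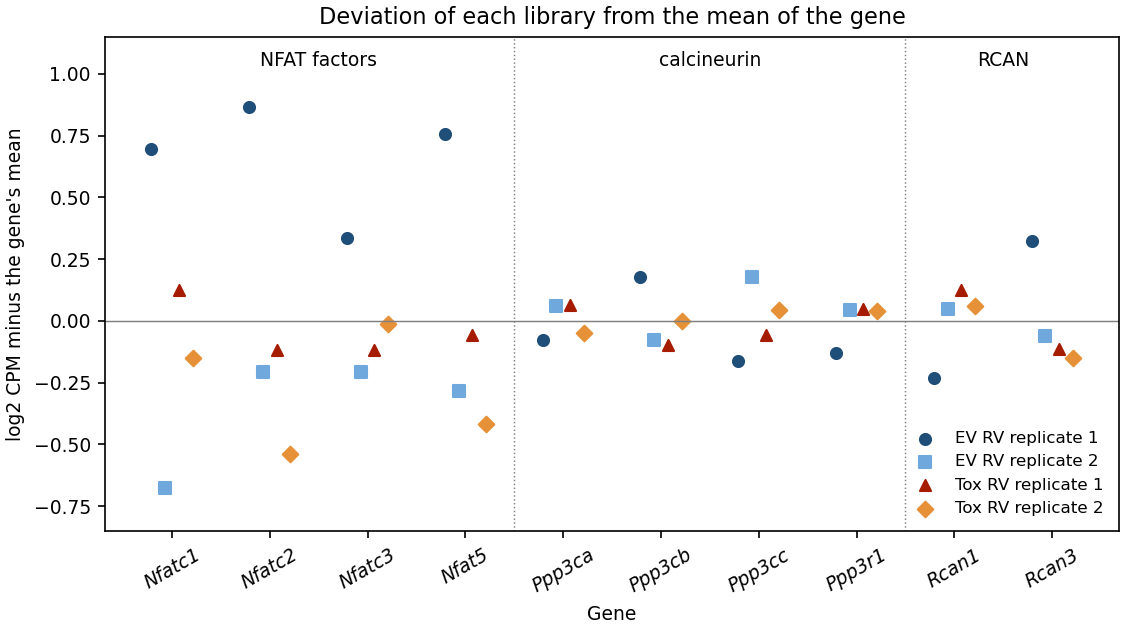
Log2 CPM of each library minus the mean of the gene over the 4 libraries, for the NFAT factors, the calcineurin subunits and the RCAN genes. EV RV replicate 1 is highest for all 4 NFAT genes, by 0.33 to 0.86 above the mean, while the 4 calcineurin genes stay between -0.16 and 0.18.

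The sequences before the start sites of the NFAT genes that moved most together are shown, since NFAT factors bind DNA at the core GGAAA. Each is the 250 bases before a RefSeq start site (GRCm38.p6, which is mm10), written 5′ to 3′ on the strand of the gene, with GGAAA or its reverse complement TTTCC in capitals. RefSeq windows were found for 7 of the 10 genes (10 windows), and of 32851 such windows of all genes 55.6% held the core at least 1 time, 21.4% at least 2 times and 6.39% at least 3 times. A match is a run of letters and not a measured binding site. The upstream start of *Nfatc2* (chr2:168601658-168601907, minus strand) held 3 copies and its downstream start (chr2:168590366-168590615, minus strand) 1, and the start of *Nfat5* (chr8:107293220-107293469, plus strand) held 2. The window of *Ppp3cb*, which varied little between libraries, also held 3, those of *Nfatc3* held 1 and 0, that of *Rcan3* held 1 and that of *Ppp3r1* held 0.
*Nfatc2* upstream start: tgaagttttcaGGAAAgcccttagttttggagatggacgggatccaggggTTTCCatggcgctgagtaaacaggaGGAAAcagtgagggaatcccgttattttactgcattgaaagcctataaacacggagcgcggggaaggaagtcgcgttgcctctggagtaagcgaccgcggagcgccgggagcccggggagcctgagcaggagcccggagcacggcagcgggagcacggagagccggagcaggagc
*Nfatc2* downstream start: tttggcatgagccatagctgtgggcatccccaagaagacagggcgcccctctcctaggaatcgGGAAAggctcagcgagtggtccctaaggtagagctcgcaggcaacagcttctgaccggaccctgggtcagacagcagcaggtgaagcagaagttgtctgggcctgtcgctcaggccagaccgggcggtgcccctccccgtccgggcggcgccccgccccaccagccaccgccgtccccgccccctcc
*Nfat5* start: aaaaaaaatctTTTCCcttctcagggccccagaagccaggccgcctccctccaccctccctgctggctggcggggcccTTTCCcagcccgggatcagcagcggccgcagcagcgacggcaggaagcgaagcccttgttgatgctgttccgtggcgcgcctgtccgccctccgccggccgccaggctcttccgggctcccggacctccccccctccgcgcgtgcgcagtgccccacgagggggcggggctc

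The calcineurin subunit genes differed little among the 4 libraries. The catalytic subunit gene *Ppp3cc* (calcineurin A gamma, best known from testis) lies on chromosome 14 (70217865 to 70289471, minus strand) and was the most abundant of the 10 genes by mean TPM. It was at 94.1 and 113 TPM in the EV RV libraries and at 92.9 and 99.6 TPM in the Tox RV libraries. Its groups overlapped, with a log2 fold change of -0.024 (standard error 0.19, 95% interval -0.49 to 0.44, edgeR adjusted p = 0.986), and -0.19 without EV RV replicate 1. An exon of *Gm49417* overlaps *Ppp3cc* on the other strand.

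*Ppp3cb* (calcineurin A beta, the catalytic form whose loss is known to impair T cells) lies on the same chromosome (20499364 to 20546573, minus strand). It was at 31.2 and 24.8 TPM in EV RV and at 23.7 and 25.4 TPM in Tox RV libraries, which overlapped. Its log2 fold change was -0.10 (standard error 0.18, 95% interval -0.54 to 0.34, edgeR adjusted p = 0.922), and 0.024 without EV RV replicate 1. *Ppp3ca* (calcineurin A alpha), on chromosome 3 (136670124 to 136937727, plus strand), was at 19.2 and 20.1 TPM in EV RV and at 19.5 and 18.1 TPM in Tox RV libraries. No library of *Ppp3ca* stood out, with a log2 fold change of 0.017 (standard error 0.17, 95% interval -0.40 to 0.43, edgeR adjusted p = 0.989), and -0.058 without EV RV replicate 1.

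The 3 catalytic subunit genes together summed to 144 and 158 TPM in the EV RV libraries and 136 and 143 TPM in the Tox RV libraries. *Ppp3cc* made up 65.1% to 71.5% of this sum over the 4 libraries, *Ppp3cb* 15.7% to 21.6% and *Ppp3ca* 12.6% to 14.3%. The order of these 3 shares was the same in every library.

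*Ppp3r1* encodes calcineurin B, the calcium-binding regulatory subunit, and lies on chromosome 11 (17159263 to 17200375, plus strand). It was at 45.3 and 48.6 TPM in EV RV libraries and at 47.2 and 46.9 TPM in Tox RV libraries, so that the Tox RV libraries lay within the range of the EV RV libraries. For *Ppp3r1* the log2 fold change was 0.084 (standard error 0.17, 95% interval -0.32 to 0.49, edgeR adjusted p = 0.931), and -0.0072 without EV RV replicate 1. The summed catalytic TPM was 2.88 to 3.25 times that of *Ppp3r1*. *Wdr92* overlaps *Ppp3r1* on the same strand, which leaves the origin of shared reads uncertain. *Ppp3r2*, the other regulatory subunit gene, had 5 counts in EV RV replicate 2 and 0 in the other libraries.

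The highest CPM of a gene was 1.11 to 1.26 times its lowest for the 4 calcineurin genes and 1.45 to 2.64 times for the 4 NFAT genes. The summed TPM of *Nfatc1*, *Nfatc2* and *Nfatc3* was 219 in EV RV replicate 1, 100.4 in EV RV replicate 2, 133 in Tox RV replicate 1 and 119 in Tox RV replicate 2, or 1.52, 0.637, 0.979 and 0.830 times the summed catalytic TPM. The Tox RV libraries lay between the EV RV libraries on this measure. *Nfatc1* made up 45.4% to 57.8% of the NFAT sum, *Nfatc3* 27.0% to 38.5% and *Nfatc2* 10.5% to 16.2%.

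**Figure D3:**
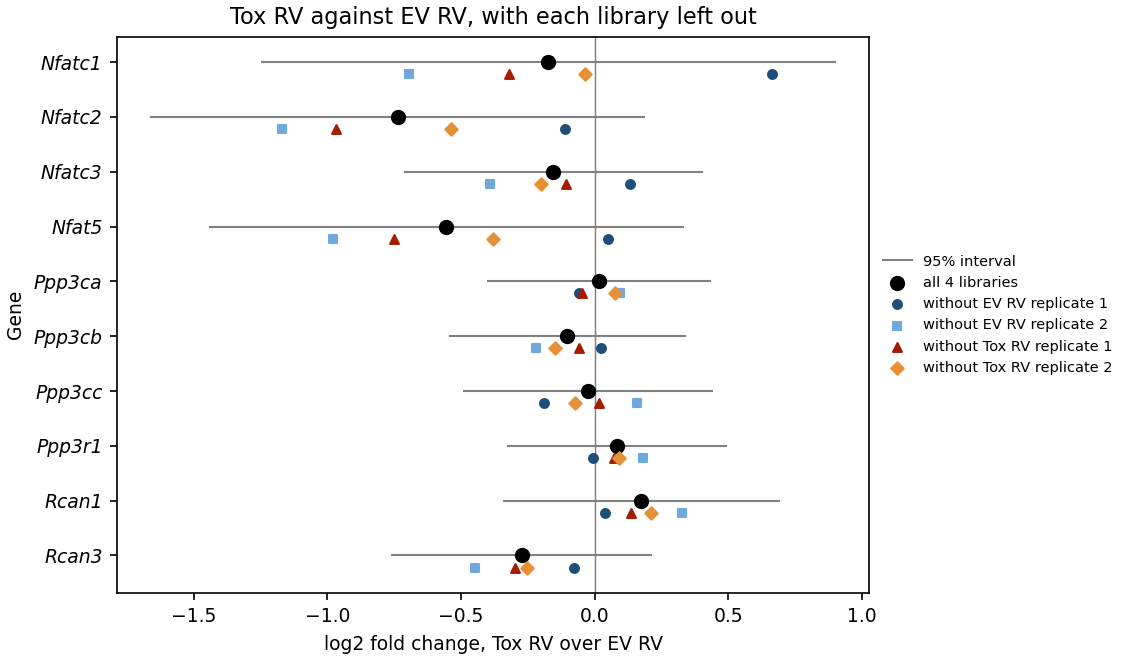
Log2 fold change of Tox RV over EV RV for each gene, with its 95% interval from edgeR's quasi-likelihood fit (grey line) and the values with each library left out (coloured points). All 10 intervals span 0, and the left-out values spread from -0.70 to 0.66 for *Nfatc1* but only from -0.058 to 0.095 for *Ppp3ca*.

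The RCAN genes encode proteins that bind calcineurin and limit it. *Rcan1*, itself a known target of calcineurin and NFAT, lies on chromosome 16 (92391953 to 92470867, minus strand) and had the lowest level of the 10 genes. It was at 6.17 TPM in EV RV replicate 1, 7.02 in EV RV replicate 2, 7.13 in Tox RV replicate 1 and 6.85 in Tox RV replicate 2, from rounded counts of 336, 735, 644 and 505. In TPM the groups overlapped. In CPM both Tox RV libraries (10.2 and 9.73) lay just above both EV RV libraries (7.96 and 9.66), an arrangement with Tox RV higher that 18.6% of all genes showed. The log2 fold change was 0.18 (standard error 0.21, 95% interval -0.34 to 0.69, edgeR adjusted p = 0.905), and 0.038 without EV RV replicate 1.

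*Rcan1* has start sites far apart in the gene, and the downstream one is known for its response to NFAT. The 250 bases before each are shown on the strand of the gene (minus), with the core GGAAA or TTTCC in capitals. The downstream window (chr16:92400079-92400328) held 3 copies, and the upstream window (chr16:92466170-92466419) held 0. The matched GENCODE transcript is 2190 bases long for the downstream start and 2324 bases long for the upstream start. RSEM's mean length for the gene reached 2345 bases in Tox RV replicate 1, so RSEM was not given both of these lengths.
*Rcan1* downstream start: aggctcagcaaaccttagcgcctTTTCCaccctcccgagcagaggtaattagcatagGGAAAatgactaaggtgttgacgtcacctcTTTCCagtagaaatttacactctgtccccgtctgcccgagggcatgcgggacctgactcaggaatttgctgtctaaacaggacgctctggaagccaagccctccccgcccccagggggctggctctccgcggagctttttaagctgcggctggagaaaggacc
*Rcan1* upstream start: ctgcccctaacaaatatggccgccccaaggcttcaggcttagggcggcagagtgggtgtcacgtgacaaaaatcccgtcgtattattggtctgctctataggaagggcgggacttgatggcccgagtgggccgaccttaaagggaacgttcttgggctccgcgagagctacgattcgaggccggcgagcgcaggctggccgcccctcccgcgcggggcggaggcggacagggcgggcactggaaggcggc

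*Rcan3*, on chromosome 4 (135412308 to 135433853, minus strand), was at 21.4 and 15.6 TPM in EV RV libraries and at 14.6 and 14.2 TPM in Tox RV libraries. The Tox RV pair lay wholly below the EV RV pair, as for 17.4% of all genes, and EV RV replicate 1 was the high one. For *Rcan3* the log2 fold change was -0.27 (standard error 0.20, 95% interval -0.76 to 0.21, edgeR adjusted p = 0.897), and -0.076 without EV RV replicate 1. The level of *Rcan3* was 3.47 times that of *Rcan1* in EV RV replicate 1 and 2.04 to 2.22 times in the other libraries. *Rcan2* had at most 6 counts in a library and was not tested.

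By mean TPM over the 4 libraries the order was *Ppp3cc* (99.8), *Nfatc1* (77.7), *Ppp3r1* (47.0), *Nfatc3* (45.1), *Nfat5* (32.7), *Ppp3cb* (26.3), *Nfatc2* (20.1), *Ppp3ca* (19.2), *Rcan3* (16.5) and *Rcan1* (6.79). The ranges of each gene and the next overlapped over the 4 libraries, with the exception of *Rcan3* and *Rcan1*. Within libraries, *Nfatc3* was above *Nfat5* and *Rcan3* above *Rcan1* in 4 of 4, while *Nfatc2* was above *Ppp3ca* in 1 of 4 and each other gene was above the next in 3 of 4. The highest value of *Rcan1* (7.13 TPM) was below the lowest of *Rcan3* (14.2 TPM). By mean TPM *Ppp3cc* was at percentile 95.4 and *Rcan1* at percentile 65.2 of all genes listed.

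RSEM also gives the mean length of a gene's transcripts in each library, weighted by their estimated abundance, which moves with the mix of transcripts and not with the level of the gene. It could differ for the 6 genes with more than 1 transcript listed. For *Nfat5*, with 3 transcripts, it was 9656 bases in EV RV replicate 1, 9010 in EV RV replicate 2, 8871 in Tox RV replicate 1 and 8855 in Tox RV replicate 2. Both Tox RV libraries were below both EV RV libraries, an order whose share over all genes was not counted. EV RV replicate 1 stood farthest from the rest. The mean over groups was 9333 bases in EV RV and 8863 bases in Tox RV cells, and without EV RV replicate 1 the difference fell from -470 to -147.1 bases. The matched GENCODE transcripts of *Nfat5* are 13380, 12773 and 4619 bases long, which need not be the lengths RSEM was given. Its range over libraries, 8.80% of its mean, was at percentile 93.0 of the 3978 tested genes with several transcripts.

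For *Rcan1* the mean length was 2306 and 2332 bases in EV RV libraries and 2345 and 2335 bases in Tox RV libraries, a range of 1.68%. The shortest mean was that of EV RV replicate 1, and the Tox RV pair lay wholly above the EV RV pair. The share of all genes with several transcripts whose lengths separated by group was not counted. The order is therefore not read as a result for *Rcan1* or *Nfat5*. *Nfatc2*, with 18 transcripts listed, ranged over 1.44% of its mean with the groups overlapping. *Nfatc1*, whose transcripts differ in their start, ranged over 0.287% of its mean, and *Ppp3ca* and *Ppp3cc* over 0.0368% and 0.0740%. With 2 libraries a group, no exact permutation test of these lengths could reach 0.05, and none was run.

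**Figure D4:**
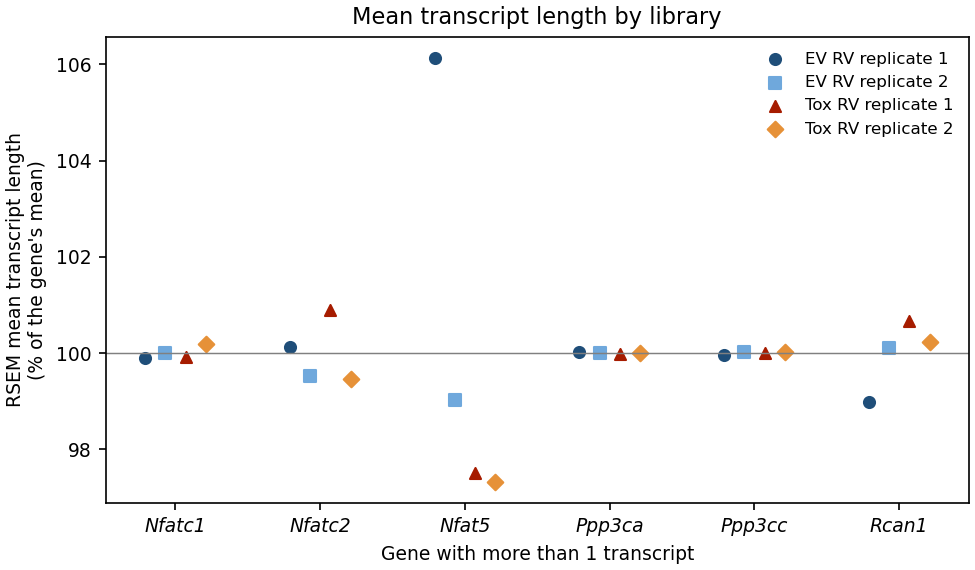
Abundance-weighted mean transcript length in each library, as a percentage of the gene's mean over the 4 libraries, for the 6 genes with more than 1 transcript. *Nfat5* is the gene whose libraries spread most, with EV RV replicate 1 at the top, and the other genes stay close to 100%.

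Around these genes, lists of the same pathway gave 0 genes past the test. In the lists of calcium entry, calcineurin partners, NFAT kinases, NFAT targets and NFAT5 targets, 43 of 47 genes had enough counts, and 0 of the 43 had an adjusted p-value below 0.05 in edgeR's quasi-likelihood test, as did 0% of all genes. Of the 43, 20 lay above 0 and 23 below, with a median log2 fold change of -0.040. Without EV RV replicate 1 the list medians were 0.12 for calcium entry, -0.061 for partners, -0.053 for kinases, 0.13 for NFAT targets and 0.098 for NFAT5 targets, with 0 genes called.

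Upstream of calcineurin, 12 of 12 calcium entry genes were tested, 6 above 0 and 6 below, with a median of -0.0043. *Calm2*, which had the highest mean TPM of them, was at 134 and 246 TPM in EV RV and 204 and 273 TPM in Tox RV libraries. Here EV RV replicate 1 was the low library, and so it was for *Calm3*, whose log2 fold change was 0.34 (standard error 0.27). Without that library the log2 fold changes of *Calm2* and *Calm3* were -0.0058 and 0.031. *Itpr2*, a calcium channel of the endoplasmic reticulum, showed a log2 fold change of -0.24 (standard error 0.18).

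Among 8 tested partners of calcineurin and NFAT, 2 lay above 0 and 6 below, with a median log2 fold change of -0.20. *Fkbp1a*, which encodes FKBP12, the protein that carries tacrolimus to calcineurin, had the smallest unadjusted p-value of all listed pathway genes. It was at 144 TPM in EV RV replicate 1, 87.1 in EV RV replicate 2, 64.0 in Tox RV replicate 1 and 60.4 in Tox RV replicate 2. The Tox RV pair lay wholly below the EV RV pair. Its log2 fold change was -0.80 (standard error 0.25, unadjusted p = 0.0192, edgeR adjusted p = 0.897), so it did not pass the test over all genes, where 2.55% were lower at an unadjusted p-value below 0.05. It was -0.45 without EV RV replicate 1 (edgeR adjusted p = 0.532). *Ppia*, which encodes cyclophilin A, the protein that carries ciclosporin, was at 2709 and 4108 TPM in EV RV and 3317 and 3802 TPM in Tox RV libraries, with overlapping groups. *Nfatc2ip*, a partner of NFAT at cytokine genes, showed a log2 fold change of -0.54 (standard error 0.30).

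Of the 7 kinases that return NFAT to the cytoplasm, all tested, 2 lay above 0 and 5 below, with a median log2 fold change of -0.21. *Csnk1a1* was at 167 and 186 TPM in EV RV and 185 and 195 TPM in Tox RV libraries (log2 fold change 0.19, standard error 0.17). The log2 fold changes of *Gsk3b*, *Csnk1d* and *Csnk1e* were -0.41 (standard error 0.23), -0.21 (standard error 0.18) and -0.21 (standard error 0.17). Without EV RV replicate 1 they were -0.12, -0.053 and -0.23, and that of *Csnk1a1* was 0.073.

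Of 13 known NFAT targets in T cells, 9 lay above 0 and 4 below (median log2 fold change 0.29), and 0 passed the test. *Il13* was at 16.4 TPM in EV RV replicate 1, 122 in EV RV replicate 2, 153 in Tox RV replicate 1 and 106 in Tox RV replicate 2. *Ifng* was at 17.2 and 160 TPM in EV RV and 140 and 69.0 TPM in Tox RV libraries. For both cytokine genes EV RV replicate 1 was far below the rest and the other EV RV library lay within or above the Tox RV libraries. The log2 fold change of *Il13* fell from 0.96 to 0.13 when that library was left out, and that of *Ifng* from 0.29 to -0.58. The transcription factor gene *Egr2* showed a log2 fold change of 0.36 (standard error 0.18), with the Tox RV pair wholly above the EV RV pair. *Il21* gave 1.41 (standard error 0.76), which Tox RV replicate 1 alone raised, at 2.29 TPM against 0.44 to 0.67 TPM in the other 3 libraries. Without EV RV replicate 1 the values of *Egr2* and *Il21* were 0.32 and 1.69.

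**Figure D5:**
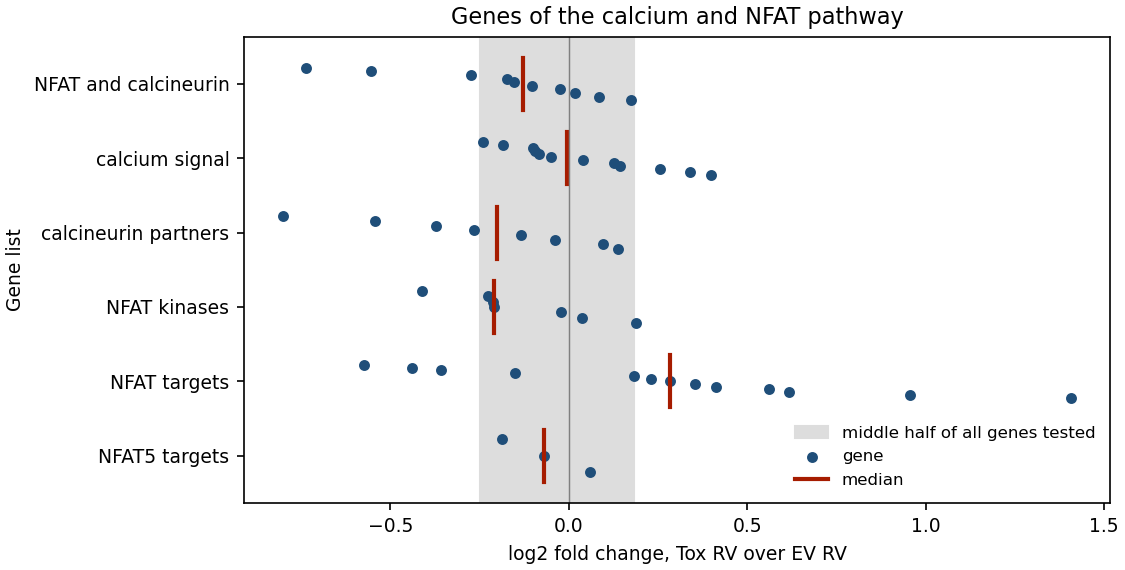
Log2 fold change of Tox RV over EV RV for the tested genes of each list (points) with the list's median (red line), over the band that holds the middle of all genes tested (quartiles -0.25 to 0.18). The NFAT targets spread most widely, from -0.57 to 1.41, and the 10 NFAT and calcineurin genes from -0.74 to 0.18.

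Genes whose pattern over the 4 libraries was most like that of *Nfatc1* and *Rcan1* were sought among genes with a mean of at least 10 CPM. Likeness was the root mean square difference of log2 CPM after each gene was centred on its own mean. For *Nfatc1* the nearest of 8512 genes were *Ube2h* (0.038), *Nipal3* (0.049) and *Kif21b* (0.072), and 11 genes lay within 0.1. For *Rcan1* the nearest were *Ppp2r3c* (0.0074), *Glrx5* (0.0075) and *BC004004* (0.0092), but 1714 of 8513 genes lay within 0.1. Among the 10 genes the closest pair was *Ppp3ca* and *Ppp3r1* (0.051), and *Nfatc2* lay nearest to *Nfat5* (0.093). Only 4 libraries underlie these distances.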

How the data were processed

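RNA-seq was available for 2 EV RV and 2 Tox RV libraries, grouped and numbered by their titles. The authors checked reads with fastqc, aligned them with bowtie1 to mm10 transcripts and quantified genes with RSEM (bowtie-n 1, bowtie-m 100), and use of strand is not stated. The deposited expected counts are RSEM's estimated fragments per gene, not normalized, and the deposited TPM values are RSEM's transcript abundances, scaled to one total per library. RSEM divides reads that match several genes between them. A further table of the series was not used here, since it scales the same libraries a second time.

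Expected counts were rounded and fitted in R 4.3.3 with edgeR 4.0.16 (filterByExpr minimum count 10, TMM, glmQLFit and glmQLFTest, Benjamini-Hochberg over 14143 genes, no block). DESeq2 1.42.0, named in the methods, and limma 3.58.1 on log2(TPM + 1) and log2(TPM + 0.1) were alternatives, beside other scalings, no filter, a block, and leaving out each library. Standard errors come from the fold change and F statistic. P-values rest on the spread between 2 libraries a group, which edgeR moderates for each gene toward that of the other genes. Having 2 libraries a group is also what limits precision here.

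On simulated data, edgeR found 18.6% of 97 genes simulated at a 2-fold change and 86.6% of 97 at 4-fold, in a run of 13968 genes. It also made 16 false calls. No simulated library was set apart as EV RV replicate 1 was, so these shares need not hold for the real data. There *Tox* itself, at a log2 fold change of 3.68, had an edgeR adjusted p = 0.490. The members and lists were chosen with earlier results of these data known. Named genes were the 10 members, and in each list the 2 most abundant, the 2 with the smallest p-value and any past an adjusted p-value of 0.05. Others named were chosen after their values were seen. A gene that this rule names is not reported here. Gene positions are from GENCODE M21 (GRCm38), and start-site sequences from RefSeq (GRCm38.p6).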

Additional observations from a re-analysis of the deposited data

How the results depend on the processing

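Of all genes, 22 passed an adjusted p-value of 0.05 in DESeq2, 22 in edgeR with no filter on low counts and 16 in the fit with the replicate block, against 0 in the analysis reported. The count was 1 to 600 with each library left out in turn, highest without EV RV replicate 2 (600) and lowest without EV RV replicate 1. The 10 genes gave 0 to 2 calls (*Nfatc2* and *Nfat5*, without EV RV replicate 2), the pathway lists 0 to 5, and the median of the 10 genes -0.31 to 0.0082. None of the 10 genes passed in the other alternatives.

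Scaling by library totals raised the median gene by 0.12 on the log2 scale, moved the median of the 10 genes to 0.0086, and turned *Ppp3cb* to 0.028 and *Ppp3cc* to 0.087. *Ppp3ca* was -0.062 with limma on log2(TPM + 1) and -0.064 on log2(TPM + 0.1). With each library left out the log2 fold change was -0.70 to 0.66 for *Nfatc1*, -0.39 to 0.13 for *Nfatc3*, -0.98 to 0.050 for *Nfat5*, -0.058 to 0.095 for *Ppp3ca*, -0.22 to 0.024 for *Ppp3cb*, -0.19 to 0.16 for *Ppp3cc* and -0.0072 to 0.18 for *Ppp3r1*. *Nfatc2*, *Rcan1* and *Rcan3* kept their direction in these fits. The cause was not tested.

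The replicate number is not known to mark 1 mouse (correlation of same-number deviations across genes 0.30), so the block is an alternative only. Leaving *Rn45s* out of the totals, chosen after seeing the data, gave 0 calls.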

Other observations

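The NFAT genes and several NFAT target cytokine genes lay at opposite ends in EV RV replicate 1. This library was the highest of the 4 for 4 of 4 NFAT genes and, in CPM, the lowest for 7 of 13 targets. Of all genes tested 37.0% had it highest and 37.0% lowest. *Egr2*, not a cytokine gene, is among the 7. The library was the highest for 1 of the 13 targets, *Egr3*, at 56.6 CPM against 15.2 in EV RV replicate 2 and 40.5 and 24.1 in the Tox RV libraries. *Il4* and *Il5*, the Th2 cytokine genes, were picked once their values were known. *Il4* was at 6.09 TPM in EV RV replicate 1, 132 TPM in EV RV replicate 2 and 48.5 and 56.4 TPM in the Tox RV libraries, and *Il5* at 0.87, 17.6, 5.36 and 6.74 TPM in the same order. Their log2 fold changes were -0.36 and -0.57 with all 4 libraries and -1.29 and -1.504 without EV RV replicate 1. They were 3.22 and 2.94 without EV RV replicate 2, where EV RV replicate 1 is the sole control. These genes were chosen for their low values in that library, so the last values are a description with no test.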
